A study of Mus musculus with 10 samples.

Results

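Levels of 8 genes were followed in mouse mammary tumours: Twist1, Twist2, Snai1, Snai2, Zeb1, Zeb2, Prrx1 and Foxc2. They were taken by gene name from the deposited count table as the classical transcription factors of the epithelial to mesenchymal transition, and all 8 were found among its 26063 genes. RNA was sequenced from 10 tumours of female FVB/N mice given doxycycline at 2 mg/ml, taken at end point and flash frozen. Of these, 5 tumours came from mice of genotype EIC/WT and 5 from mice of genotype 16IC/WT, and every tumour carried its own animal label. The labels spell out neither genotype name, and they give no animal age, no promoter and no other allele. The series title names HER2∆16, a splice variant of the HER2 receptor. Total counts ran from 14813940 to 16947400 per tumour. Several epithelial markers of the labelled tissue were abundant: Epcam read 1227 to 2085, Krt8 606 to 1812 and Krt18 557 to 1599 CPM (counts scaled to a common library size) over the 10 tumours. The luminal keratin Krt19 was not abundant in all: it read 0 to 3.53 CPM in EIC 2, 16IC 1, 16IC 3 and 16IC 4. In the other tumours it read 233 to 446 CPM.

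In the epithelial to mesenchymal transition, epithelial cells lose their junctions and take up a motile, matrix-producing state. The factors followed here drive that programme in development and in carcinoma. SNAIL and ZEB proteins are zinc finger repressors that bind E-boxes, short DNA sites present in promoters of epithelial genes such as E-cadherin, and TWIST proteins are basic helix-loop-helix factors that bind E-boxes as dimers. PRRX1 is a homeobox factor of limb and facial mesenchyme, and FOXC2 is a forkhead factor of mesenchyme and lymphatic vessels. In normal mammary tissue several of these genes are also transcribed in fibroblasts, in vessels or in basal cells. In bulk tumour RNA, fewer cells of one type and less RNA per cell cannot be told apart.

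The E-box that SNAIL and ZEB proteins favour reads CACCTG, or CAGGTG on the other strand. The 250 bases before the start site were searched for it on both strands in the RefSeq promoters of GRCm38.p6, and 17.2% of all 32841 promoters held it. Counted per gene with any promoter, as for the lists that follow, the share was 19.4% of 27018 genes. Among 15 epithelial junction and keratin genes, 12 had a promoter in the table and 9 of these held the motif. Among 19 mesenchymal genes, 10 had a promoter and none held it. Of the 8 factors themselves, 5 had a promoter: Snai1 held the motif, and Twist1, Twist2, Zeb2 and Prrx1 did not. Snai2, Zeb1 and Foxc2 had no entry. The promoters of Twist1 and Snai1, the most abundant of the factors per length, and of 3 epithelial genes described further on are shown 5′ to 3′ on the gene's strand, with the motif in capitals. The 3 are a choice from the 9 and were higher on average in 16IC tumours. Of the rest of the 9, Ocln and Krt18 were higher too, and Cldn4, Cldn7, Krt8 and Patj were lower. Holding the motif thus did not go with one direction. Twist1 is at chr12:33957421-33957670 (plus strand), Snai1 at chr2:167537945-167538194 (plus strand), Epcam at chr17:87635729-87635978 (plus strand), Crb3 at chr17:57061951-57062200 (plus strand) and Rab25 at chr3:88548280-88548529 (minus strand).
Twist1: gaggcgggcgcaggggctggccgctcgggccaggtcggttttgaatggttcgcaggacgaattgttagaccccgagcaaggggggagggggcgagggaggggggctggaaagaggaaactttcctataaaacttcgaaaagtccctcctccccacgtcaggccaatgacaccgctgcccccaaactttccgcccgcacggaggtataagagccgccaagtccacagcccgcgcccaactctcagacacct
Snai1: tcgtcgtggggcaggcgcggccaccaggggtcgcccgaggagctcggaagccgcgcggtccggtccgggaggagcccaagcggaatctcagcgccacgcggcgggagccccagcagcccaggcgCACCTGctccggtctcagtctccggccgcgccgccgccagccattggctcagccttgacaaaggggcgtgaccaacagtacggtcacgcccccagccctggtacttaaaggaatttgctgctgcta
Epcam: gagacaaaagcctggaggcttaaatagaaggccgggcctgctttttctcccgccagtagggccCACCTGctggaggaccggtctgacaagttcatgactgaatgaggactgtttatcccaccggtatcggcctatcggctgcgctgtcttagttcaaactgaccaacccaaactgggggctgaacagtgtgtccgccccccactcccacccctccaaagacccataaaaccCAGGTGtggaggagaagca
Crb3: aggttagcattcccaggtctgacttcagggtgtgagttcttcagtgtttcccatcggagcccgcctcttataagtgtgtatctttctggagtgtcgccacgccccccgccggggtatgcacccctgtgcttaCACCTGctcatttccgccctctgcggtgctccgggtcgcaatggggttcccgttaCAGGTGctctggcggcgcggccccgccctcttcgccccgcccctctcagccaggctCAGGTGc
Rab25: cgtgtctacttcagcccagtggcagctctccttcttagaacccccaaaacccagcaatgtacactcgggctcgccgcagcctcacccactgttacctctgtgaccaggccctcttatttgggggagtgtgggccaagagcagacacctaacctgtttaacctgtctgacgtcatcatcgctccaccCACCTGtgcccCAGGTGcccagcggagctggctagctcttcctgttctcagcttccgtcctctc
The motif began 126 bases before the Snai1 start site. It began 187 and 19 bases before the Epcam start, 118, 63 and 7 bases before the Crb3 start, and 64 and 53 bases before the Rab25 start. The Twist1 window held no E-box of the general form CANNTG either, a form present in 66.2% of all promoters. A match describes the letters of a window and not a bound site.

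The factors differed widely in level. On the authors' FPKM scale, which divides by gene length, Twist1 and Snai1 led with means of 12.0 and 11.9 over the 10 tumours. The other 6 had lower means: Prrx1 at 1.39, Zeb1 at 0.978, Zeb2 at 0.804, Snai2 at 0.766, Foxc2 at 0.452 and Twist2 at 0.0737. The top place of Twist1 rested on few tumours, since it averaged 22.1 ± 17.9 FPKM in EIC tumours and 1.88 ± 1.45 in 16IC tumours (SD, n = 5 each) and exceeded Snai1 in 2 of 10. In EIC 2 Twist1 (1.23 FPKM) was below Zeb1 (1.37), and in 16IC 3 Twist1 (0.176) was below Zeb1 (0.380), Zeb2 (0.342) and Prrx1 (0.270). Snai1 exceeded Prrx1 in 10 of 10 tumours, Snai2 exceeded Foxc2 in 9 of 10 and Foxc2 exceeded Twist2 in 10 of 10. Prrx1, Zeb1, Zeb2 and Snai2 changed places among themselves, so their order does not stand beyond the spread. The first 3 of them each exceeded the next in the order in 5 to 7 of 10. Prrx1 exceeded Zeb1 in 4 of 5 EIC tumours and in 1 of 5 16IC tumours.

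Twist1, a basic helix-loop-helix factor of early mesoderm and neural crest, was the most variable of the 8. It lies at chr12:33957671-33959829 (GRCm38) and no other annotated gene overlaps it. Its level, as CPM scaled by trimmed mean of M values (TMM), was 28.9, 2.08, 37.1, 86.0 and 31.2 in EIC tumours 1 to 5. In 16IC tumours 1 to 5 it was 3.17, 6.36, 0.304, 1.30 and 4.63 CPM. Thus 4 EIC tumours stood above every 16IC tumour, while EIC 2 lay inside the 16IC range, and the groups overlapped. From the lowest to the highest tumour the level changed 283-fold, from 5 to 1375 counts. The standard deviation (SD) of its log2 CPM over the 10 tumours was larger than that of 98.9% of the 14915 genes tested. Its close relative Twist2 was nearly absent, with 40 counts in the 10 tumours together and 13 in the highest. At 0 to 0.773 CPM it did not pass the filter on low counts, and it entered no genotype test.

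Snai1, the founding vertebrate SNAIL repressor, lies at chr2:167538195-167542814, again with no overlapping gene. It read 35.9, 5.29, 15.6, 31.7 and 47.6 CPM in EIC tumours 1 to 5, against 3.46, 25.0, 5.53, 4.87 and 23.2 CPM in 16IC tumours 1 to 5. The 10 values lay in separate ranges that crossed the genotypes: EIC 2 and 16IC 1, 3 and 4 were at or below 5.53 CPM, and the other 6 tumours were at or above 15.6. That gap, 1.47 on the log2 scale, took up 39.4% of the whole range of Snai1. In Twist1 the widest gap, 2.16 on the log2 scale, lay between 6.36 and 28.9 CPM and left EIC 2 with all 16IC tumours on its lower side. Snai2, also called Slug, is a factor of basal mammary cells and neural crest. It was low throughout, at 3.48, 0.653, 1.38, 1.31 and 2.17 CPM in EIC tumours 1 to 5 and 1.73, 2.02, 0.365, 0.823 and 1.93 CPM in 16IC tumours 1 to 5. Its groups overlapped over most of their range.

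The ZEB repressors, which act in a feedback loop with the miR-200 microRNAs, varied least. Zeb1 read 14.8, 14.6, 11.9, 10.5 and 7.17 CPM in EIC tumours 1 to 5 and 11.7, 12.0, 4.14, 7.40 and 9.09 CPM in 16IC tumours 1 to 5, a 3.59-fold range in all. Zeb2 read 25.2, 16.4, 22.6, 24.6 and 14.6 CPM in EIC tumours 1 to 5 and 11.7, 16.8, 7.24, 5.35 and 20.5 CPM in 16IC tumours 1 to 5. In both genes the groups overlapped, and Zeb1 was the one factor in which EIC 2 was among the 2 highest EIC tumours. The sources used here do not say whether the authors counted by strand. Transcripts overlapping Zeb1, Zeb2, Twist2 and Prrx1 on the other strand can therefore add to these factors. The antisense gene Zeb2os itself held 29 counts in all tumours together, against 2715 for Zeb2. The 3 genes that overlap Prrx1, 1 of them on the other strand, are not in the count table.

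Prrx1, at chr1:163245119-163313710 on the minus strand, read 27.6, 10.7, 18.2, 36.3 and 17.4 CPM in EIC tumours 1 to 5. It read 11.2, 12.5, 3.16, 7.27 and 13.8 CPM in 16IC tumours 1 to 5. As with Twist1, EIC 2 was the one EIC tumour below the highest 16IC tumours. Foxc2 ranged from 0.594 to 2.44 CPM in EIC tumours and from 0.365 to 1.55 CPM in 16IC tumours, and its groups overlapped.

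The same tumours recurred at the ends of these lists. 16IC 3 was the lowest of all 10 tumours in 6 of the 8 factors, and 16IC 3 and 16IC 4 were above the median of the 10 in none. EIC 2 was the lowest EIC tumour in 5 factors, and EIC 1 was above the median of the 10 tumours in all 8. Among 16IC tumours, 16IC 2 was the highest in 6 factors.

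**Figure D1:**
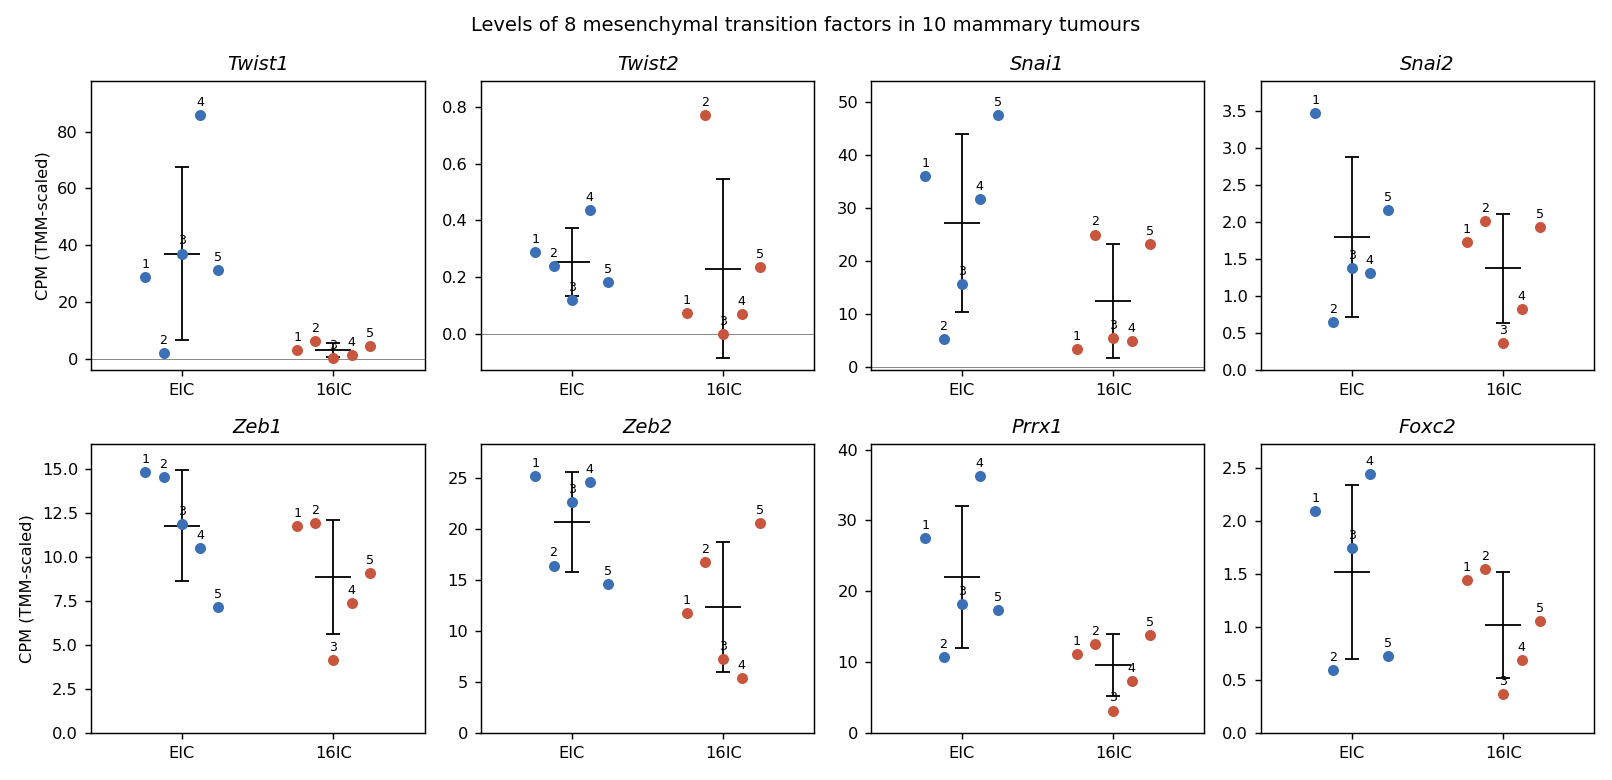
Level of each factor in every tumour, in TMM-scaled CPM on a linear axis with its own scale per panel. Points are tumours with their number, blue for EIC and red for 16IC, and bars give the mean and SD (n = 5 per genotype). EIC 2 sits with the 16IC tumours in Twist1 at 2.08 CPM, and Snai1 splits each genotype.

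The comparison of 16IC with EIC asked whether the genotypes differ in these factors. All 7 factors that could be tested were lower on average in 16IC tumours, where 52.3% of all 14915 genes tested had a difference below 0. None of the 7 passed edgeR's quasi-likelihood test after Benjamini-Hochberg adjustment (0.0% of all genes did, and 13.1% had an unadjusted p under 0.05). At an unadjusted p under 0.05, 2 of the 7 were lower in 16IC tumours, Twist1 and Prrx1, against a background of 6.29% of genes. With DESeq2, Twist1 alone passed its adjusted threshold, where 1.27% of genes passed as lower and 2.11% in either direction. The genotypes overlapped in all 8 factors, and 2.58% of genes tested had genotypes that did not overlap (1.19% with 16IC lower).

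Twist1 averaged 37.0 ± 30.5 CPM in EIC tumours and 3.15 ± 2.45 CPM in 16IC tumours (SD, n = 5 each). Its log2 difference was -3.55 (95% interval -5.57 to -1.52), and the standard error (SE) was 0.91. The edgeR adjusted p was 0.261 and the DESeq2 adjusted p was 0.0016, so the call depends on the tool. The authors' deposited log2 difference of -3.55 and adjusted p of 0.0016 equal those of DESeq2 to these digits, though the processing notes do not name that tool. They come from the same counts and are no separate result. A two-sided exact permutation test over the 252 arrangements of the tumours gave p = 0.0317 for Twist1 alone, where the smallest p possible is 0.00794. Without EIC 2 the genotypes did not overlap, as was so for 2.88% of all genes tested in that direction, and the edgeR adjusted p was 0.102. EIC 2 was singled out as the EIC tumour within the 16IC range, so that separation follows from the choice.

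Prrx1 averaged 22.0 ± 9.97 CPM in EIC tumours and 9.58 ± 4.35 CPM in 16IC tumours (SD, n = 5 each). Its log2 difference was -1.20 (SE 0.42), with a 95% interval from -2.14 to -0.26 and adjusted p values of 0.307 by edgeR and 0.116 by DESeq2. Prrx1 was also separated between genotypes once EIC 2 was left out, and DESeq2 then gave an adjusted p of 0.0336. EIC 2 was again the EIC tumour within the 16IC range, so this separation follows from the choice and adds no support. Leaving it out also raised the number of all genes that DESeq2 called, as given further on. The other 5 factors had intervals that include 0. Their log2 differences were -1.13 (SE 0.69) for Snai1, -0.74 (SE 0.36) for Zeb2, -0.57 (SE 0.52) for Foxc2, -0.41 (SE 0.31) for Zeb1 and -0.39 (SE 0.55) for Snai2. The interval of Snai1, from -2.66 to 0.40, holds both a large fall and no difference.

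**Figure D2:**
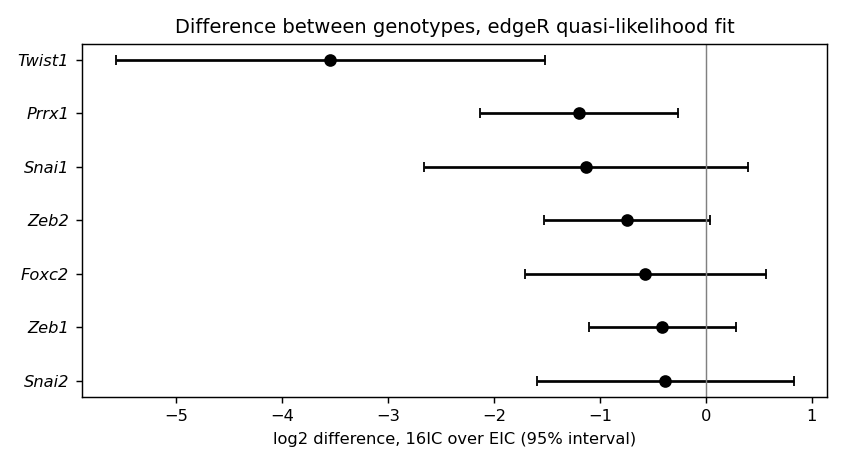
Difference between genotypes for the 7 factors tested, as the edgeR log2 ratio of 16IC over EIC on the horizontal axis. Points are estimates from 5 tumours per genotype and bars are 95% intervals. Twist1 at -3.55 and Prrx1 at -1.20 have intervals below 0, and the other 5 include 0.

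Which factors moved together was measured over tumours as the correlation of log2 CPM (prior count 2) in all 28 pairs. Every pair had a positive Pearson r, with a median of 0.68, and 19 pairs had an unadjusted permutation p under 0.05. After adjustment over the 28 pairs, 9 passed. Prrx1 took part in 5 of the 9, with Twist1, Snai1, Snai2, Zeb2 and Foxc2. The other 4 joined Twist1 to Snai1, Zeb2 and Foxc2, and Zeb2 to Foxc2. No pair with Zeb1 or with Twist2 passed. Ranked among 14914 genes by r with a factor, partners in the 9 pairs lay between 12th (Twist1 for Prrx1) and 1924th (Prrx1 for Snai1). By r with Prrx1, Snai2 ranked 1171st and Snai1 1396th. Many genes outside the list thus followed a factor as closely as such partners did. Twist2 was counted 0 to 13 times per tumour, so its r values of 0.55 to 0.67 are no finding.

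Prrx1 and Twist1 moved together most closely. Over the 10 tumours r was 0.944 (adjusted permutation p = 0.00056, unadjusted 2e-05) and Spearman's rho was 0.952 (adjusted permutation p = 0.00224). The 2 tumours farthest from the median were also left out, judged by the factor of the pair that comes first in the opening list. Here these were EIC 4 and 16IC 3 by Twist1, and r was then 0.900 (exact permutation p = 0.00109). Between deviations from the genotype means, which take out the difference between EIC and 16IC, r was 0.897 (exact permutation p = 0.00132). Since Twist1 lay in separate ranges, the relation was also taken within the 6 tumours of low Twist1, which are EIC 2 and all 16IC tumours. There r with Prrx1 was 0.962 (exact permutation p = 0.00417, and 0.0292 adjusted over 7 relations). Snai2 and Foxc2 also followed Twist1 within those 6 tumours, with r of 0.934 and 0.906 (both exact permutation, adjusted p = 0.0292). Zeb1, Zeb2, Snai1 and Twist2 did not pass there, with r from 0.604 to 0.824. These 6 tumours were picked from the values of Twist1 after they were seen, as the side of its gap that held 6. They are few, so the p-values within them describe the relation and are no separate support. Among all genes tested, Prrx1 was the 13th closest of 14914 to Twist1, and Twist1 the 12th closest to Prrx1.

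Snai1 passed with Twist1 and with Prrx1, by Pearson's r only. Over the 10 tumours its r was 0.785 with Twist1 and 0.715 with Prrx1 (both adjusted permutation p = 0.0472), 0.688 with Snai2 and 0.181 with Zeb1, the lowest of the 28 pairs. By Spearman's rho, 0.709 with Twist1 and 0.733 with Prrx1, neither passed (adjusted permutation p = 0.0856 and 0.0725). Within the 6 tumours of high Snai1, its r with the other factors lay between -0.360 and 0.514, and the smallest exact permutation p was 0.299. Keeping one side of the gap narrows the range of Snai1 and leaves few tumours, so the relation could not be settled within it. Without the 2 tumours farthest from the Twist1 median, EIC 4 and 16IC 3, r with Twist1 was 0.774 (exact permutation p = 0.0333). Without the 2 farthest from the Snai1 median, 16IC 1 and 16IC 4, r was 0.754 with Prrx1 (exact permutation p = 0.0222) and 0.892 with Snai2 (exact permutation p = 0.00553).

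Prrx1 was joined to Zeb2 by an r of 0.838 and to Foxc2 by 0.843 (adjusted permutation p = 0.017 for both), and by a rho of 0.879 to each (adjusted permutation p = 0.0156 for both). Without the 2 tumours farthest from the Zeb2 median, 16IC 3 and 16IC 4, r with Zeb2 fell to 0.757 (exact permutation p = 0.0287). Without the 2 farthest from the Prrx1 median, EIC 4 and 16IC 3, r with Foxc2 fell to 0.630 (exact permutation p = 0.0926). With deviations from genotype means r was 0.726 with Zeb2, which did not pass (adjusted exact permutation p = 0.106). With Foxc2 it was 0.892, which passed (adjusted exact permutation p = 0.013). The remaining pairs that passed were Snai2 with Prrx1 (r = 0.741), Twist1 with Zeb2 (0.787), Twist1 with Foxc2 (0.783) and Zeb2 with Foxc2 (0.730). Without the 2 farthest tumours their r was, in that order, 0.329, 0.672, 0.535 and 0.569 (exact permutation p = 0.427, 0.0486, 0.165 and 0.145). By Spearman's rho the first 2 did not pass (adjusted permutation p = 0.122 and 0.0594). The pair of Zeb genes had an r of 0.679 (adjusted permutation p = 0.0602), and the pair of Snai genes 0.688 (adjusted permutation p = 0.0602). Many of these calls rested on 16IC 3, the tumour lowest in 6 factors: without it 1 pair of the 28 passed, Twist1 with Prrx1. Without EIC 1, too, 1 pair passed.

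**Figure D3:**
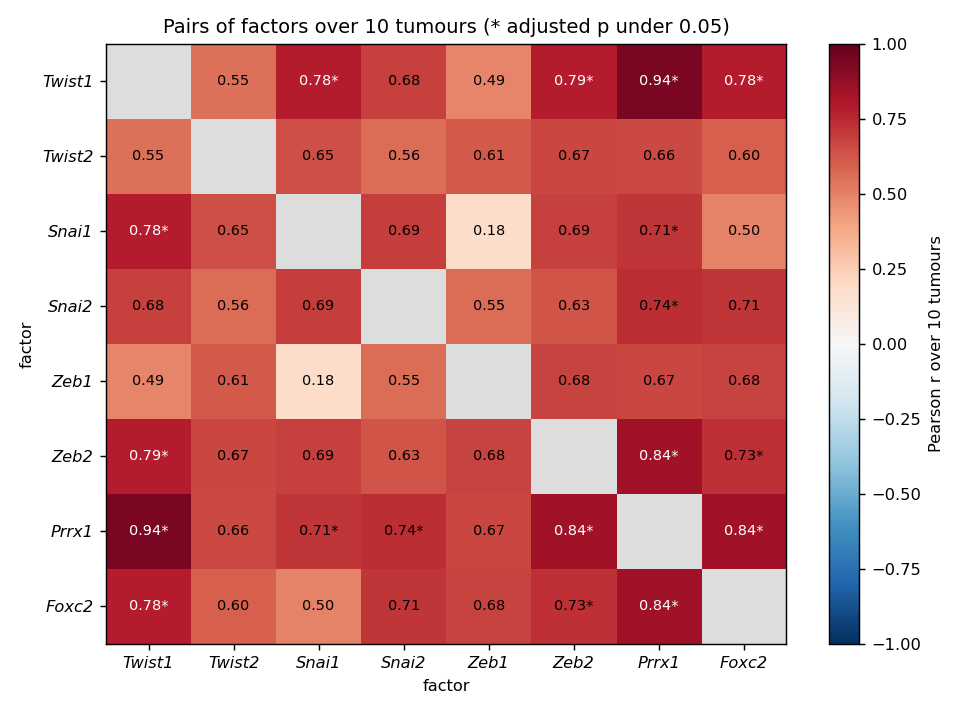
Pearson r between the log2 CPM of each pair of factors over the 10 tumours, with factors on both axes and colour from -1 to 1. Asterisks mark an adjusted permutation p under 0.05 over 28 pairs. Every r is positive, from 0.18 for Snai1 with Zeb1 to 0.94 for Twist1 with Prrx1.

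**Figure D4:**
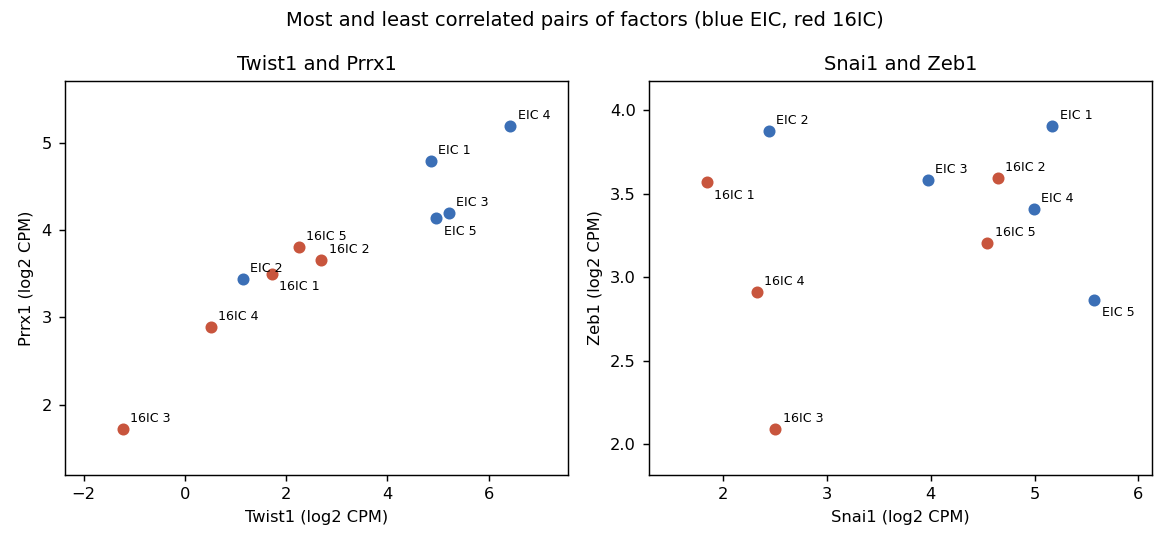
Log2 CPM of Prrx1 against Twist1 (left) and of Zeb1 against Snai1 (right), one labelled point per tumour, blue for EIC and red for 16IC. On the left, EIC 2 lies among the 16IC tumours on the same line as the rest (r = 0.944). On the right, the 4 tumours of low Snai1 run from 4.14 to 14.6 CPM of Zeb1, the lowest and the second highest of the 10 (r = 0.181).

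For each factor, the 3 genes whose log2 CPM followed it most closely over the 10 tumours were taken, as a description with no test. For Twist1 these were Adgre5 (r = 0.979), an adhesion receptor also called CD97, Nav1 (0.976) and Stx2 (0.966). For Snai1 they were Txndc12 (0.997), an endoplasmic reticulum thioredoxin family protein, Cap1 (0.990), an actin regulator, and Ntng1 (0.983). Prrx1 was followed by Ephb2 (0.983), an ephrin receptor, by Ripk3 (0.971), a necroptosis kinase, and by Apbb2 (0.968). Zeb2 had Ttll4 (0.982), P4ha3 (0.969), a collagen prolyl hydroxylase subunit, and Lox (0.969), the collagen cross-linking enzyme. Zeb1, with the weakest best match among the factors, had Akap6 (0.924), Cacna2d1 (0.922) and Frem1 (0.921). Snai2 was closest to Col6a5 (0.969), Spink5 (0.958) and Cd33 (0.957), and Foxc2 to Megf9 (0.944), Olfml2b (0.929) and Lyar (0.924). Twist2 was closest to Srsf2 (0.947), Gtf2e1 (0.929) and Slc36a2 (0.922), which at its low counts is no finding. Some of the genes named were themselves low: Col6a5 ran from 0 to 3.48 CPM and Ntng1 from 0 to 4.82 CPM, and Slc36a2 had a median of 0.137 CPM in 16IC tumours.

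Genes of the mesenchymal state, which include matrix proteins, matrix proteases and the intermediate filament vimentin, were lower in 16IC tumours in 18 of 18 members tested. Their median log2 difference was -0.92, beside -0.02 over all genes. None passed the adjusted edgeR test, and 8 had an unadjusted p under 0.05, against 6.29% of all genes in that direction. DESeq2 called 3, Vim and Loxl2 among them, against 1.27% of all genes. The list was chosen with earlier results of these data known, so these counts describe it and are no support. Vim read 768, 389, 591, 935 and 283 CPM in EIC tumours 1 to 5 and 171, 294, 293, 184 and 278 CPM in 16IC tumours 1 to 5, so only EIC 5 lay within the 16IC range. Its log2 difference was -1.28 (SE 0.33). EIC 2 was above every 16IC tumour here, at 389 CPM, unlike in Twist1.

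Epithelial genes showed no common direction. Of 15 junction and keratin genes, 7 were higher and 8 lower in 16IC tumours, with a median log2 difference of -0.03, and none passed edgeR or DESeq2. Rab25, an apical recycling GTPase, differed by 0.63 on the log2 scale (SE 0.20). Crb3, a Crumbs polarity protein, differed by 0.60 (SE 0.23), with edgeR adjusted p values of 0.289 and 0.322 for the 2 genes. Cdh1, which encodes E-cadherin, ranged from 404 to 733 CPM in EIC tumours and from 319 to 617 CPM in 16IC tumours, a log2 difference of -0.42 (SE 0.24). Epcam, whose promoter is shown above with Crb3 and Rab25, differed by 0.33 (SE 0.17). Of 12 factors of epithelial identity, such as the grainyhead-like and Ovol genes, 6 were higher and 6 lower, with a median of 0.08. Grhl1 at 0.68 (SE 0.32) and Tfcp2l1 at 1.08 (SE 0.66) had the smallest p in that list, and neither passed.

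Other genes of the pathway were read the same way. Among 12 tested of 16 further transition factors, 3 were higher and 9 lower, with a median log2 difference of -0.29. Foxq1, a forkhead factor, differed by -2.03 (SE 0.98) and Tcf12, a partner of TWIST proteins, by -0.27 (SE 0.15). Of 15 TGF-beta inputs and ID proteins, 5 were higher and 10 lower, with a median of -0.20. Tgfb2, a ligand that induces the transition, differed by -0.92 (SE 0.28) and Skil, a brake on SMAD proteins, by -0.64 (SE 0.27). Of 19 corepressors and turnover factors, 6 were higher and 13 lower, with a median of -0.15. Hdac2, a deacetylase recruited by Snai1, differed by -0.39 (SE 0.12) and Ezh2, the Polycomb methyltransferase, by -0.51 (SE 0.18). No gene of these 3 lists passed edgeR or DESeq2 after adjustment.

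Markers of other cell types moved with several factors, and their part in the differences above was not tested. Over 96 relations of the 8 factors with 12 marker sums, 18 passed an adjusted permutation p of 0.05 by Pearson's r and 12 by Spearman's rho. Prrx1 was joined to 5 lists: lymphatic endothelium (r = 0.961, rho = 0.939), fibroblast (0.842), myoepithelium and basal epithelium (0.841), blood endothelium (0.840) and adipocyte (0.752). Twist1 was joined to lymphatic endothelium (0.846), myoepithelium and basal epithelium (0.842) and blood endothelium (0.766). Foxc2 was joined to lymphatic endothelium (0.849), blood endothelium (0.847) and fibroblast (0.776), and Snai2 to fibroblast (0.872), blood endothelium (0.833) and macrophage (0.809). Zeb2 followed the lymphatic (0.850) and the myoepithelial and basal sum (0.843), and Snai1 the latter alone (0.909). Twist2, at its low counts, passed with adipocyte (0.880), and Zeb1 with none. No factor followed the luminal, pericyte, lymphocyte, skeletal muscle or skin keratinocyte sum at that threshold. Without the 2 tumours farthest from the median of the factor in each relation none of the 96 passed, and without 16IC 3 only 4 did.

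Summed fibroblast markers (9 of 10 lower in 16IC tumours) ran from 185 to 638 CPM in EIC tumours and from 50.6 to 373 CPM in 16IC tumours, with 16IC 3 lowest. All 10 were detected in every tumour, led by Pdgfrb with a log2 difference of -0.79 (SE 0.35) and Thy1 with -0.60 (SE 0.30). Myoepithelial and basal markers (7 of 8 lower) ran from 39.3 to 656 CPM in EIC tumours and from 21.9 to 200 CPM in 16IC tumours. Single genes carried most of this sum at its ends. Krt14 held 466 CPM in EIC 1, the highest tumour, Oxtr 106 CPM in 16IC 5, the highest 16IC tumour, and Acta2 17.5 CPM in 16IC 4, the lowest. In this list Krt5, Krt14, Krt17 and Cnn1 were each at 0 in at least 1 tumour. DESeq2 called the basal keratin Krt17, with a log2 difference of -4.65 (SE 1.15), and did not call Krt14 at -5.10 (SE 1.80). Lymphatic endothelial markers (3 of 3 tested lower) ran from 20.9 to 72.5 CPM in EIC tumours and from 6.99 to 36.8 CPM in 16IC tumours. Their defining genes Prox1 and Ccl21a were at most 3.28 CPM and failed the filter, so that sum rests on Flt4, Lyve1 and Pdpn, none of them specific to lymphatic vessels: Flt4 is also read in blood vessels, Lyve1 in macrophages and Pdpn in fibroblasts and basal epithelium. Pdpn made up 42.6 of the 72.5 CPM in EIC 4, the highest tumour. Blood endothelial markers (4 of 7 lower) ran from 114 to 205 CPM in EIC tumours and from 70.1 to 192 CPM in 16IC tumours. Adipocyte markers (5 of 6 lower) ran from 23.2 to 238 CPM in EIC tumours and from 11.0 to 236 CPM in 16IC tumours, and Adipoq, Plin1, Lep and Cidec were each at 0 in at least 1 tumour.

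The remaining marker lists give the rest of the makeup. Luminal markers (4 of 8 lower in 16IC tumours) stayed within 4215 to 6823 CPM in sum over the 10 tumours. That sum hides Krt19, which was at most 3.53 CPM in EIC 2, 16IC 1, 16IC 3 and 16IC 4. Pericyte markers (4 of 7 lower) ran from 246 to 751 CPM and macrophage markers (7 of 8 lower) from 163 to 987 CPM. Skeletal muscle markers (5 of 5 lower) varied most, from 2.22 to 2120 CPM in EIC tumours and from 0.973 to 308 CPM in 16IC tumours, and none of the factors followed them. The Schwann cell and melanocyte list (4 of 4 tested higher) was almost wholly Sox10, at 440 to 984 CPM, a gene that mammary epithelium also expresses. Lymphocyte and skin keratinocyte markers had 1 gene each that passed the filter, Nkg7 and Krt10. Within these lists and the endothelial and adipocyte lists, the genes of smallest p differed on the log2 scale as follows. The pericyte genes Mcam and Cspg4 differed by -0.95 and -1.03, and Mcam, which DESeq2 called, did not overlap between genotypes. The endothelial genes Cldn5, Emcn, Flt4 and Lyve1 differed by -0.79, -0.61, -0.52 and -1.31. The macrophage genes Itgam and Fcgr1 differed by -0.97 and -0.62, the muscle genes Ckm and Tnnt3 by -3.30 and -3.20, and the adipocyte genes Plin4 and Fabp4 by -0.96 and -0.43. Nkg7 differed by 0.83, Krt10 by -0.25 and Sox10 by 0.22. None of these genes passed edgeR after adjustment.

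**Figure D5:**
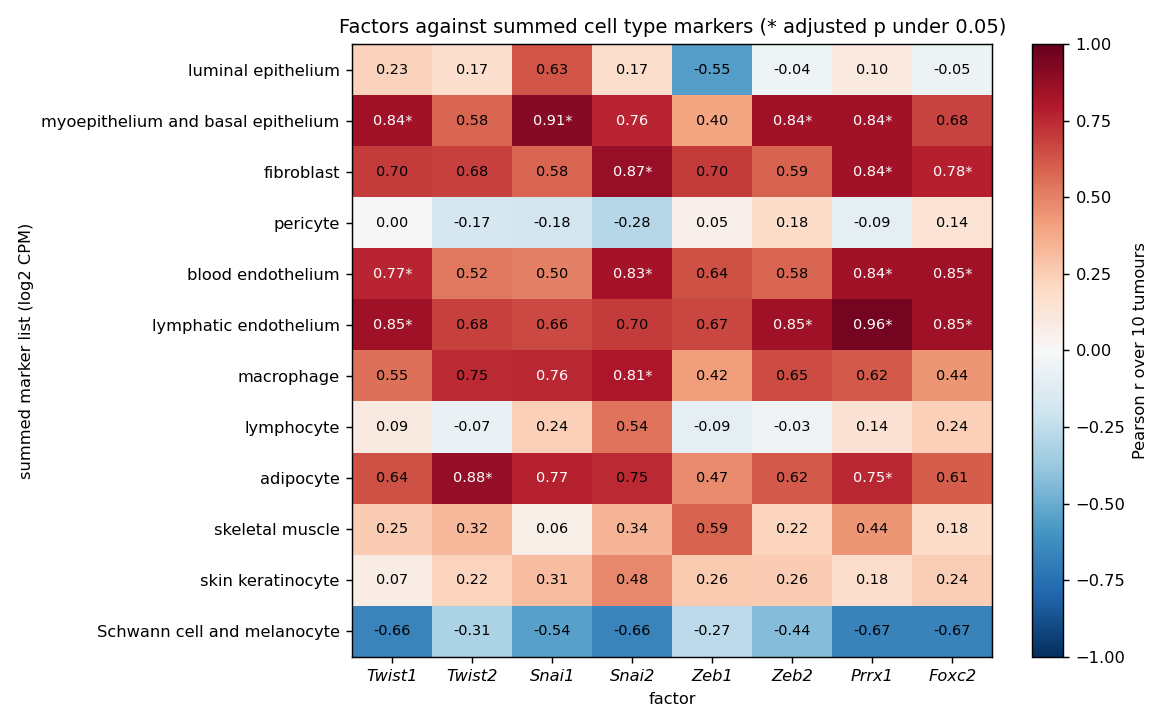
Pearson r over the 10 tumours between the log2 CPM of each factor (horizontal axis) and the log2 of the summed CPM of each marker list (vertical axis), coloured from -1 to 1. Asterisks mark an adjusted permutation p under 0.05 over 96 relations. Prrx1 has the highest value, 0.96 with lymphatic endothelial markers, and Zeb1 has no asterisk.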

How the data were processed

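Reads were trimmed, aligned and counted by the authors, and the submitters' processing notes name Trimmomatic, STAR, HTSeq, edgeR and limma with builds GRCm38 and mm10, without versions. The deposited table holds raw counts per gene. It also holds the authors' normalized signal, FPKM, log2 fold changes and p-values, per the file headers. FPKM served only for levels between genes, and the signal columns were not used. Genes were kept with filterByExpr (minimum count 10), which left 14915. edgeR 4.0.16 (TMM, robust quasi-likelihood) gave the main test on counts in R 4.3.3, with Benjamini-Hochberg adjustment over all genes tested. DESeq2 1.42.0 and limma 3.58.1 were alternatives. Scripts were tested on simulated data. Correlations used TMM-scaled log2 CPM (prior count 2) and 100000 resamples, or all orders for fewer tumours. Factors and gene lists were chosen with earlier results of these data known. By rule, the genes named are the 8 factors, the 2 genes of smallest p in each list, the 3 genes most like each factor, and defining markers, though some of them are not reported here. Loxl2, Krt19 and Hmga2 were named after their values were seen, as were the 6 tumours within which Twist1 and Snai1 were examined. Median biological variation was 33.6%, and 5 tumours per genotype limit the precision. P-values of the genotype tests rest on the spread between tumours of separate animals. Permutation p-values of correlations over the 10 tumours take both genotypes together, so a difference between genotypes can add to r.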

Additional observations from a re-analysis of the deposited data

How the results depend on the processing

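No alternative reversed the direction of any of the 7 factors tested, but that of Snai2 rested on EIC 1, without which its edgeR log2 difference was -0.0033 (adjusted p = 0.999). Twist1 was not called in any of 17 edgeR and limma settings, its log2 difference running from -3.97 to -2.98 and its adjusted p from 0.102 to 0.503 (farthest from 0 without 16IC 2 and nearest without EIC 4). DESeq2 called it at -3.55, and, leaving out each tumour (an alternative added after seeing the data), in 10 of 10 fits, with a largest adjusted p of 0.0266. Those fits gave -3.63, -3.86, -3.56, -2.98 and -3.60 without EIC tumours 1 to 5 and -3.56, -3.97, -3.26, -3.36 and -3.74 without 16IC tumours 1 to 5. Prrx1 was called at -1.38 by DESeq2 without EIC 2 and in no other setting. The factors called numbered 0 with every edgeR and limma setting, 1 with DESeq2, and 1 to 2 when DESeq2 left out a tumour. All genes called numbered 0 with edgeR (1958 at an unadjusted p under 0.05), 0 to 2 when edgeR left out a tumour, and 356 with DESeq2. When DESeq2 left one out they numbered 217, 839, 350, 203 and 286 for EIC tumours 1 to 5 and 243, 549, 226, 178 and 579 for 16IC tumours 1 to 5. The cause of the gap between the tools was not tested.

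The 9 correlated pairs became 15 with scaling by total count alone, 17 with a prior count of 0.5, 5 by Spearman's rho, 3 from deviations from genotype means, and 1 without the 2 farthest tumours. Leaving out one tumour gave 1 (without EIC 1 or 16IC 3), 3 (without EIC 3), 4 (without 16IC 4 or 16IC 5) and up to 13 (without EIC 2). Twist1 with Prrx1 passed in all 15 alternatives. The 18 relations with marker sums became 6 from deviations from genotype means, 0 without the 2 farthest tumours, and 4 (without 16IC 3) to 25 (without EIC 3) with one tumour left out. With total count alone, 10 of the 12 further transition factors, 11 of the 15 TGF-beta genes and 15 of the 19 corepressor genes were lower. The lymphocyte list had no gene left under a filter of at least 1 CPM in 5 tumours and gave no value. No paired analysis was possible because the labels carry no replicate numbers. Depth limits Twist2, Snai2 and Foxc2, which held 40, 260 and 206 counts over all tumours.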

Other observations

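Some listed genes took a tumour order close to that of a factor. They were picked after their values were seen, with no test. Krt19, a luminal keratin, was 0 to 3.53 CPM in EIC 2, 16IC 1, 16IC 3 and 16IC 4, the tumours of low Snai1, and 233 to 446 CPM in the other 6. Krt17, a basal keratin, was 11.4 to 28.6 CPM in the 4 EIC tumours of high Twist1 and 0 to 1.58 CPM in the others. Hmga2, an architectural chromatin factor that failed the filter on low counts, reached 11.9 CPM in EIC 1 and 7.44 CPM in EIC 4 and stayed at or below 0.482 CPM elsewhere. Foxq1 was also highest in EIC 1 and EIC 4, at 15.2 and 6.19 CPM.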
